A study of Mus musculus with 20 samples.

Results

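Osteosarcomas of p53R172H/+ mice (here R172H, n = 6) were compared with osteosarcomas of p53+/- mice (here p53 het, n = 4). These tumours were chosen by the genotype in the library names and make up 10 of the 20 libraries of the series. Osteosarcoma is a malignant tumour of bone-forming cells, and gene expression was measured by bulk RNA sequencing of total RNA from primary tumours that were frozen at necropsy. The p53 het mice carry a lost allele of Trp53 and the R172H mice a missense allele in its place, each beside a wild-type allele, on a C57BL/6J and 129S/SvJae mix. No treatment is given in the labels. Whether a tumour had kept its wild-type allele is not given, nor are age, sex and tumour site. The comparison addresses how a mutant p53 protein and a lost allele differ in the tumours that arise. Every R172H library has a serial number in its name, as do p53 het 1 and 2 but not p53 het 3 and 4, so main results are also given with p53 het 1 and 2 as the only controls. Each library is treated as 1 tumour, and the labels do not say whether any share an animal.

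The p53 protein is a transcription factor that stress stabilises. It binds DNA through its core domain and switches on genes for cell cycle arrest, apoptosis and metabolism, among them Mdm2, whose product marks p53 for destruction. The arginine that R172H replaces corresponds to a hotspot residue of human cancer, and its change to histidine disturbs the fold of the core domain. Loss of p53 function is a frequent event in osteosarcoma, and mutant p53 often accumulates as protein in tumour cells.

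The codon that the R172H allele changes is shown here in the reference sequence, as it names the genotype. It lies in exon 5 of the GENCODE M21 transcript Trp53-203 (390 codons), on the plus strand at chr11:69588511-69588513 of GRCm38. The capitals mark that arginine codon, within chr11:69588496-69588528.
Trp53 codon: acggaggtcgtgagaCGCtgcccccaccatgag

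Libraries held 22788668 to 29211623 counts in p53 het and 20136957 to 28755806 in R172H. The detection floor of 3 counts equals 0.103 to 0.149 CPM, which are counts scaled to the library total. Osteoblast markers were present in all 10 tumours, with the osteoblast factor Runx2 at 170 to 519 CPM and the bone matrix gene Ibsp at 1309 to 5824 CPM, while the late osteoblast product Bglap ranged from 0.89 CPM in p53 het 4 to 111 CPM in R172H 6. Muscle RNA stood out in p53 het 4, where Ckm, the muscle creatine kinase, lay at 108 CPM against 0.278 to 41.8 CPM in the other 9 tumours. Xist, the RNA of the inactive X chromosome, was at 148 CPM in R172H 2 and 631 to 1724 CPM in the other 9. In such bulk samples, fewer cells of a type and less RNA per cell cannot be told apart. Log2 folds below are R172H minus p53 het from edgeR's quasi-likelihood test with Benjamini-Hochberg adjustment at 0.05 over all genes tested, ± is their standard error, and folds use TMM-scaled libraries.

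Few single genes passed the test. Of 20616 genes tested, 16 passed (0.0776%): 1 was higher in R172H (0.00485%) and 15 were lower (0.0728%). They comprised 2 protein-coding genes, 5 miscellaneous small RNAs, 4 small nucleolar RNAs, 1 small nuclear RNA, 3 processed pseudogenes and 1 antisense transcript. Against p53 het 1 and 2 alone, 4 of 21287 genes passed (0.0188%), all lower, and 2 genes were called in both comparisons. At an unadjusted p under 0.05 there were 2527 genes (12.3%) against all 4 controls and 1546 (7.26%) against the 2. DESeq2, the tool the submitters used, called 295 genes against all 4 controls (86 higher, 209 lower), among them all 16. The calls at this threshold were sensitive to single libraries. Leaving out p53 het 4, any one of R172H 1 to 5, R245W 1 or 3, or R270H 2, 3, 4 or 5 (the R245W and R270H tumours only help to estimate the spread) left 0 genes in edgeR's test, with 1948 to 2557 genes at an unadjusted p under 0.05. Without p53 het 1 there were 166 genes, without p53 het 2 134, and without p53 het 3 there were 3.

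Trp53 itself (chromosome 11, 69580359 to 69591873) was higher in every R172H tumour than in every p53 het tumour. Its level was 13.5, 27, 22.2 and 18 CPM in p53 het 1 to 4. In R172H it ran from 36.3 through a median of 48.6 to 71.3 CPM. The groups do not overlap, and the mean log2 CPM differed by 1.33 (exact two-sided permutation test, p = 0.00476 over 210 splits of 10 tumours). Against p53 het 1 and 2 the difference was 1.36 (exact permutation test, p = 0.0357), and in both cases p is the smallest that the number of tumours allows. In the model across all genes the log2 fold of 1.17 ± 0.27 did not pass (adjusted p = 0.106). DESeq2 gave 1.17 with an adjusted p of 0.00572. In the other mutants, Trp53 ranged from 57.5 to 74.0 CPM in R245W and from 26.5 to 53.2 CPM in R270H. The counts do not say which allele the reads came from.

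**Figure D1:**
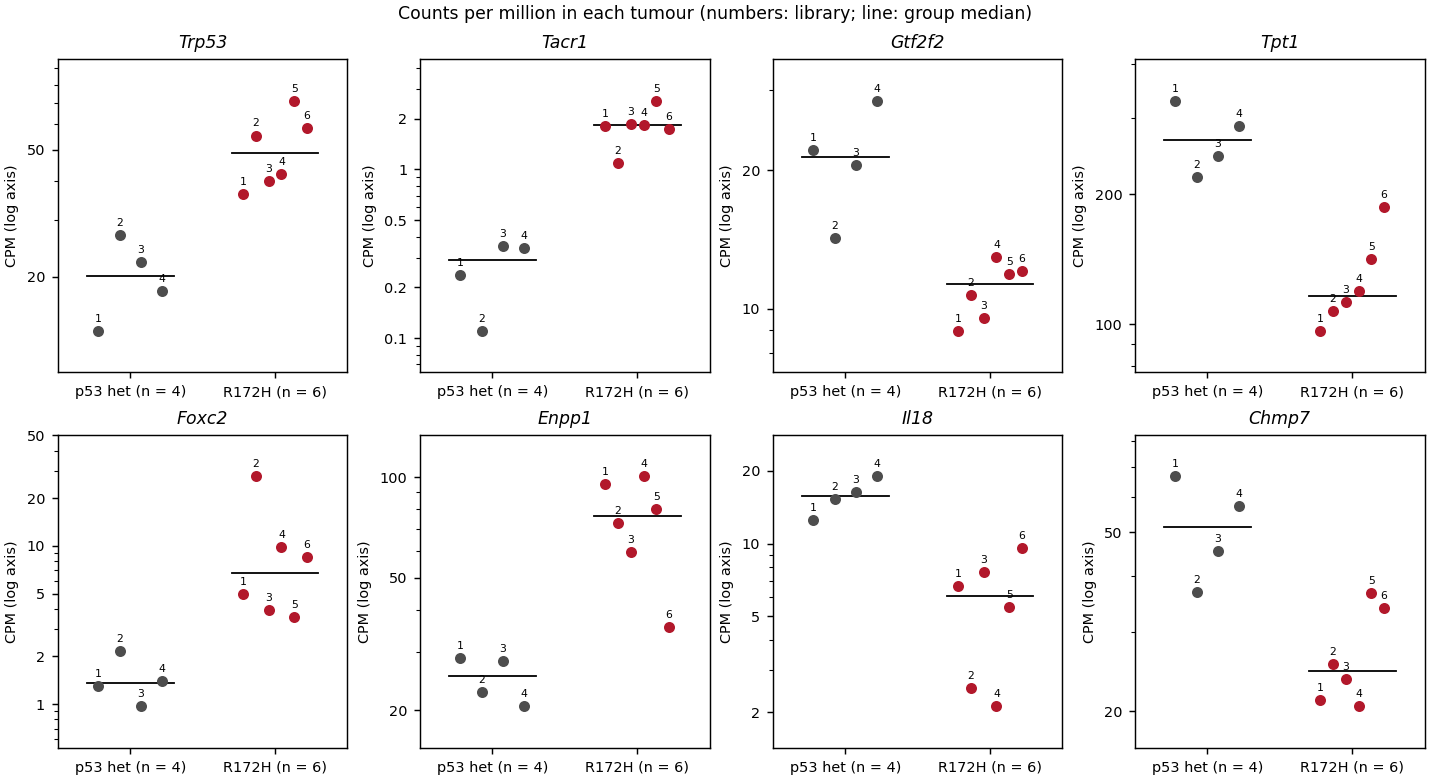
CPM (log axis) of 8 genes in each p53 het (grey) and R172H tumour (red), with the library number above each point and the group median as a line. In every panel the 2 groups do not overlap, for example 13.5 to 27 against 36.3 to 71.3 CPM for Trp53. Most of these genes were named by a rule that requires this, and 2.15% of all genes showed it.

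No listed regulator or target of p53 passed the test. Only 16 of 20616 genes (0.0776%) did, so this says little about lists of 19 and 24 genes. Of 19 tested members of a list of p53 family members and regulators, 12 were above 0 and 7 below, and none passed. Cdkn2a, which encodes an inhibitor of Mdm2, had a log2 fold of -1.17 ± 0.42 (adjusted p = 0.290) and lay at 20.3, 80.3, 66.7 and 137 CPM in p53 het 1 to 4. In R172H it ran from 30.7 through 34.2 to 46.6 CPM, so p53 het 1 lay below every R172H tumour and the 3 other controls above them all. Mdm2 itself had a log2 fold of -0.00 ± 0.19, with 34.5 to 57.9 CPM in p53 het and 45.2 to 58.3 CPM in R172H. Of 24 genes that p53 switches on, 17 were below 0, none passed, and the median log2 fold was -0.09 against -0.02 over all genes. Cdkn1a, the cell cycle inhibitor p21, stood at -0.02 ± 0.40. The stress gene Sesn2 had the lowest p of that list, with 54.5, 71.0, 26 and 40.2 CPM in p53 het and 18.2 to 36.5 CPM in R172H. Its log2 fold was -0.95 ± 0.32 (adjusted p = 0.256) and -1.41 ± 0.33 against p53 het 1 and 2 (adjusted p = 0.307). In the latter comparison its groups do not overlap, as held for 10.4% of all genes.

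The 1 gene that passed as higher in R172H was Tacr1, which encodes the receptor of the neuropeptide substance P. It lies on chromosome 6 from 82402334 to 82560104. Its counts were 6, 3, 8 and 10 in p53 het 1 to 4 and 22 to 55 in R172H, equal to 0.110 to 0.351 CPM and 1.09 to 2.56 CPM. The log2 fold was 2.67 ± 0.46 (adjusted p = 0.0440), and 3.15 ± 0.66 against p53 het 1 and 2 (adjusted p = 0.223). Every R172H tumour lay above every p53 het tumour, although p53 het 2 stood at the limit of 3 counts. In the other mutants, Tacr1 ranged from 0.319 to 1.29 CPM in R245W and from 0.567 to 1.49 CPM in R270H. Tac1, the gene of substance P itself, was at or near the limit, with 0 to 6 counts in any of the 10 tumours. Of 14 tested genes for neuropeptides and their receptors, 9 were above 0 and 5 below. Tacr1 alone passed, beside 0.0776% of all genes, and this list was drawn up with earlier results known. Ramp1, a partner subunit of a neuropeptide receptor, had a log2 fold of -0.96 ± 0.28 (adjusted p = 0.193).

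Gtf2f2, whose product is part of TFIIF, a general factor that works with RNA polymerase II, was the protein-coding gene that passed as lower. It lies on chromosome 14 from 75896937 to 76010865 on the minus strand, and the span of Kctd4 on the other strand lies across it. Its level was 22.2, 14.3, 20.6 and 28.4 CPM in p53 het 1 to 4 and ran from 8.94 through 11.3 to 12.9 CPM in R172H, with no overlap. The log2 fold was -1.07 ± 0.19 (adjusted p = 0.0440), and -0.93 ± 0.24 against p53 het 1 and 2 (adjusted p = 0.352). Gtf2f1, the other subunit of the factor, had a log2 fold of -0.18 ± 0.21 with overlapping groups. Of 30 genes for basal transcription factors and RNA polymerase II, 26 were below 0 against all 4 controls and 20 against p53 het 1 and 2, with medians of -0.22 and -0.06. Tacr1 and Gtf2f2 kept their direction under every alternative tried, but lost the call under 20 and 19 of 26 of them.

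Of the 16 genes that passed, 10 were small non-coding RNAs, and all but Gm25813, a small nuclear RNA highest in p53 het 2, were highest in p53 het 3 and 4. Y RNAs are short transcripts of RNA polymerase III that bind the Ro60 protein, and 7SL RNA is the scaffold of the signal recognition particle. The Y RNA genes Rny1 (chr6:47788069-47788180, minus strand) and Rny3 (chr6:47781624-47781725, plus strand) are printed as GENCODE M21 gives them, as examples of a split among the controls. The capitals mark the runs at both ends that can pair with each other (G with T counted as a pair).
Rny1: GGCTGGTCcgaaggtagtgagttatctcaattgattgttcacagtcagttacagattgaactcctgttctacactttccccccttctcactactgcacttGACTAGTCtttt
Rny3: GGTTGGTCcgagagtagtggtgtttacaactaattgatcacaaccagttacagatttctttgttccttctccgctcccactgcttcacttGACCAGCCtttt

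For Rny3, p53 het 1 and 2 gave 32.6 and 30.7 CPM and p53 het 3 and 4 gave 2872 and 740 CPM. In R172H it ran from 8.55 through 11.8 to 37.5 CPM, so p53 het 1 and 2 fell inside the R172H range. The log2 fold was -5.83 ± 0.96 against all 4 controls (adjusted p = 0.0405) and -1.08 ± 0.51 against p53 het 1 and 2 (adjusted p = 0.685). Rny1 showed the same split, at 44.3, 39.3, 2460 and 1960 CPM in p53 het 1 to 4 and 16.6 to 72.6 CPM in R172H, but missed the threshold (adjusted p = 0.0573). Rn7s2, a 7SL gene on chromosome 12, had 0.749 and 0.810 CPM in p53 het 1 and 2 and 32.3 and 31.8 CPM in p53 het 3 and 4. Its log2 fold of -5.31 ± 0.85 (adjusted p = 0.0405) shrank to -1.08 ± 0.49 against p53 het 1 and 2, and its sequence is 100% identical to that of Rn7s1. Rn7sk, the abundant RNA that restrains transcription elongation, did not share this split, at -0.01 ± 0.32 and -0.32 ± 0.38.

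All 11 tested 7SL, 7SK, Y and RNase RNAs were below 0 with a median of -1.83. Of these, 3 passed, all lower, beside 0.0776% of all genes. The median was -0.33 against p53 het 1 and 2. Of 55 small nucleolar and Cajal body RNAs with such symbols, which guide the modification of other RNAs, 51 were below 0 and the median was -1.64, against -0.14 with p53 het 1 and 2. None of the 55 passed. Snord8, with the lowest p among those of at least 1 CPM, lay at 0.749, 0.405, 12.3 and 5.55 CPM in p53 het 1 to 4 and 0.139 to 0.894 CPM in R172H. In the 8 other tumours of the series, Rny3 was at 11.9 to 28.7 CPM in the 3 R245W libraries, whose names hold a serial number, and at 112 to 224 CPM in the 5 R270H libraries, whose names hold none. In these 8 tumours the kind of library name and the genotype go together, so they cannot be told apart. Among the names without a serial number, p53 het 3 and 4 lay above the R270H libraries, at 2872 and 740 CPM. Against p53 het 1 and 2, whose names are of the same kind as those of R172H, none of the 10 small RNAs passed, but not all lost their difference. Gm25813 had -5.90 ± 0.99 (adjusted p = 0.0836), with 0.276 CPM in p53 het 1, 18.4 CPM in p53 het 2 and 0.0993 to 0.295 CPM in R172H. Gm25117, which lies within Nap1l1, had -1.44 ± 0.35 (adjusted p = 0.307) and did not overlap in either comparison, with 13.6, 15.8, 121 and 32.0 CPM in p53 het 1 to 4 and 4.66 to 8.85 CPM in R172H. Gm26493, a small nucleolar RNA within Cnot1, turned from -5.90 ± 1.07 to 0.54 ± 0.42.

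**Figure D2:**
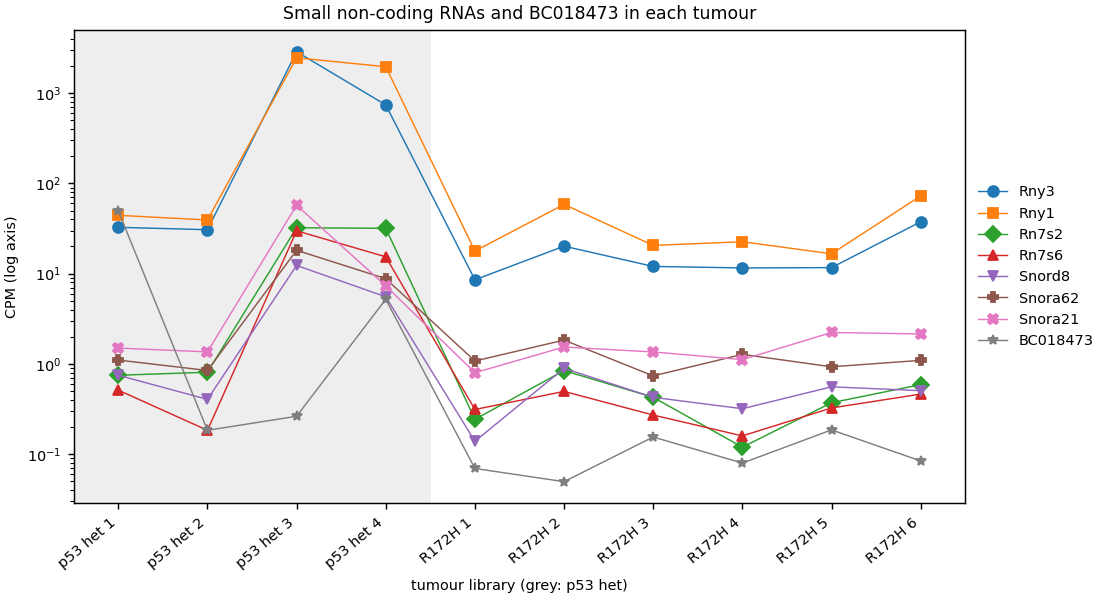
CPM (log axis) of 7 small non-coding RNAs and of BC018473 in the 10 tumours, with p53 het on grey. The small RNAs are high in p53 het 3 and 4 and low in the 8 other tumours (Rny3: 2872 and 740 against 8.55 to 37.5 CPM), whereas BC018473 is high in p53 het 1 and 4.

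The 2 genes called in both comparisons were Gm13443 and BC018473. Gm13443 is a processed pseudogene of 555 bases on chromosome 2 that is 99.5% identical to the transcript of Glo1, so reads of these genes cannot be told apart with certainty. It had 67, 97, 5 and 86 counts in p53 het 1 to 4 and 0 to 3 counts in R172H. Its log2 fold was -4.98 ± 0.71 (adjusted p = 0.0401) and -5.46 ± 0.63 against p53 het 1 and 2 (adjusted p = 0.00529). BC018473, an antisense transcript on chromosome 11, had 1260 counts in p53 het 1, 152 in p53 het 4 and 1 to 6 counts in the 8 other tumours, so p53 het 1 and 4 stood apart among the 4 controls. In the comparison with p53 het 1 and 2 (-7.99 ± 1.09, adjusted p = 0.0219) only p53 het 1 was high, since p53 het 2 had 5 counts. With p53 het 4 left out of the 4 controls the call was lost (adjusted p = 0.0829). Gm11942, which is 97.4% identical to the ribosomal protein gene Rplp1, had 16 to 753 counts in p53 het and 0 to 10 in R172H. Tpt1-ps3, a pseudogene that is 100% identical to part of the Tpt1 transcript, fell by 2.05 on the log2 scale (± 0.34, adjusted p = 0.0405); Tpt1 itself is described with chromosome 14 below. The calls against p53 het 1 and 2 also held Rps26-ps1 and Iglv2, an immunoglobulin light chain segment, and each was high in p53 het 2 only (37.0 and 16.3 CPM, against at most 0.745 and 0.197 CPM in the 9 other tumours).

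By gene position, the lowest block lay on chromosome 14. Gtf2f2 lies in a stretch of chromosome 14 whose genes were lower together, and this stretch was picked after its values were seen, so no test is given. Of 229 windows of 10 Mb with at least 15 protein-coding genes of at least 5 CPM, the window from 70 to 80 Mb of chromosome 14 had the lowest median log2 fold, -0.73 over 51 genes. The windows as a whole had a median of -0.08, with their 5th percentile at -0.26 and their 95th at 0.13. Other windows were low too, such as chromosome 4 from 150 to 160 Mb (-0.40, with 56 of 69 genes below 0 and 24 lower at an unadjusted p under 0.05) and chromosome 14 from 30 to 40 Mb (-0.37, with 43 of 51 below 0 and 11 lower). Set against p53 het 1 and 2, these medians were -0.21 and -0.59. Of the 51 genes, 48 were below 0, 34 had an unadjusted p under 0.05 (background 7.86% of 11213 such genes lower, and 3.73% higher, of which the block had none), 6 did not overlap between groups (background 0.357% lower) and 1, Gtf2f2, passed. Against p53 het 1 and 2 the median was -0.94, and 50 genes were below 0.

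The tumours differed among themselves in this block. The median level of the 51 genes, as log2 CPM minus the mean of the 4 genotype means, was 0.81 in p53 het 1 and 0.14, 0.08 and 0.18 in p53 het 2, 3 and 4. In R172H 1 to 4 it was -0.58, -0.56, -0.43 and -0.58, and in R172H 5 and 6 it was -0.05 and 0.01. Thus 4 of the 6 R172H tumours lay below all other tumours of the series, since the 8 R245W and R270H tumours lay between -0.16 and 0.20, and p53 het 1 lay above them all. Without p53 het 1 the median log2 fold was -0.38, 44 genes were below 0 and 20 rather than 34 had an unadjusted p under 0.05. With p53 het 3 and 4 as the controls 17 genes did. DNA copy number was not analysed here.

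**Figure D3:**
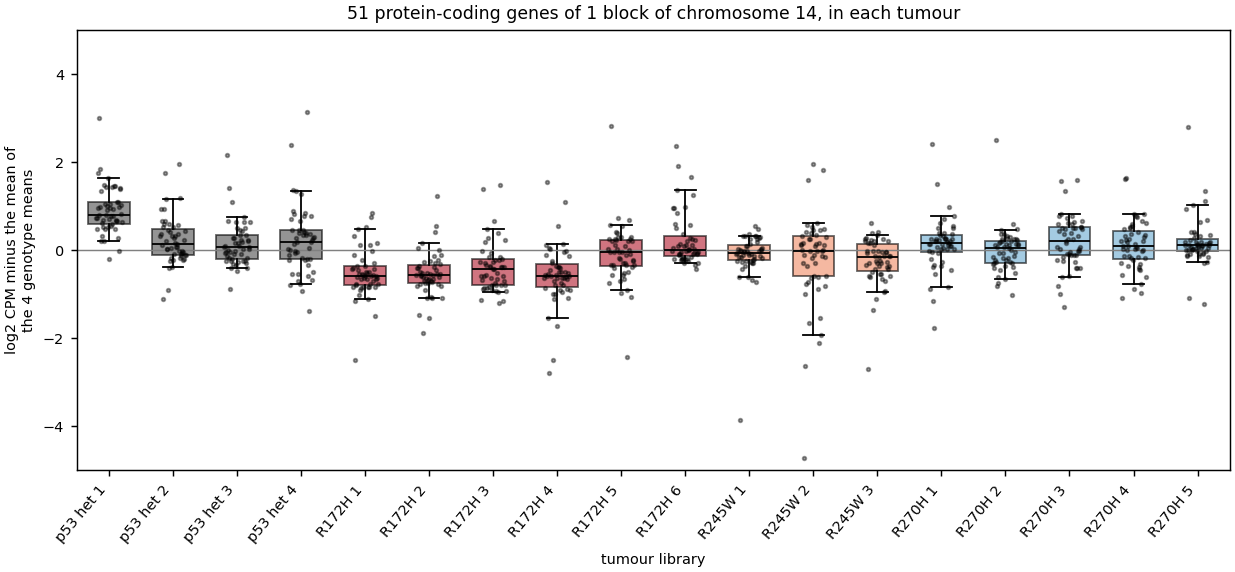
Level of 51 protein-coding genes in the chromosome 14 block in each of 18 tumours, as log2 CPM minus the mean of the 4 genotype means; boxes span the quartiles, the line is the median, whiskers reach the 5th and 95th percentiles and points are genes. The medians of R172H 1 to 4 lie between -0.58 and -0.43, and that of p53 het 1 is at 0.81.

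Named genes of the block include known growth regulators and housekeeping genes. Rb1, the retinoblastoma tumour suppressor that restrains entry into the cell cycle, lay at 103, 34.4, 40.8 and 54.7 CPM in p53 het 1 to 4 and from 34.0 through 38.9 to 71.1 CPM in R172H. Its log2 fold of -0.55 ± 0.26 did not pass (adjusted p = 0.409), and the groups overlap. Rcbtb2, whose span overlaps that of Rb1 on the other strand, was at 46.4 to 53.5 CPM in p53 het and 22.1 to 44.7 CPM in R172H, with no overlap (-0.93 ± 0.21, adjusted p = 0.108). Tpt1, which encodes an abundant protein with roles in growth and survival, was at 219 to 329 CPM in p53 het and ran from 96.6 through 116 to 187 CPM in R172H (-1.19 ± 0.25, adjusted p = 0.0700). Sugt1, a co-chaperone of HSP90, and Sucla2, a subunit of a citric acid cycle enzyme, stood at -1.08 ± 0.21 and -0.93 ± 0.19 (adjusted p = 0.0634 and 0.0665). The 3 genes above 0 were Tnfsf11, the osteoclast factor RANKL (0.60 ± 0.56), Lcp1, an actin-bundling protein of blood cells (0.15 ± 0.30), and Hr (0.01 ± 0.57). Just outside the window, Chmp7, a subunit of a membrane-remodelling complex, had -1.06 ± 0.20 (adjusted p = 0.0581), with 36.7 CPM in both the lowest p53 het and the highest R172H tumour. Its own window, from 60 to 70 Mb, had a median of only -0.21 over 48 genes. Against p53 het 1 and 2 that window stood at 0.05, with 22 genes below 0. There p53 het 1 had a median level of -1.04, against 0.81 in the block.

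Over whole chromosomes, chromosome 14 had the lowest median log2 fold, -0.24 over 386 protein-coding genes and -0.30 against p53 het 1 and 2. It held 87 genes that were lower at an unadjusted p under 0.05, which is 22.5% of its genes, against 7.86% of these genes on all chromosomes. Of these 87 genes, 34 lie in the block described above. The other chromosomes had medians between -0.17 and 0.02. On the scale used for the block, the chromosome 14 median was 0.39, 0.12, -0.003 and 0.15 in p53 het 1 to 4. It was 0.21, -0.41, -0.20, -0.40, -0.08 and -0.05 in R172H 1 to 6. The groups thus overlap, with R172H 1 above p53 het 2, 3 and 4.

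**Figure D4:**
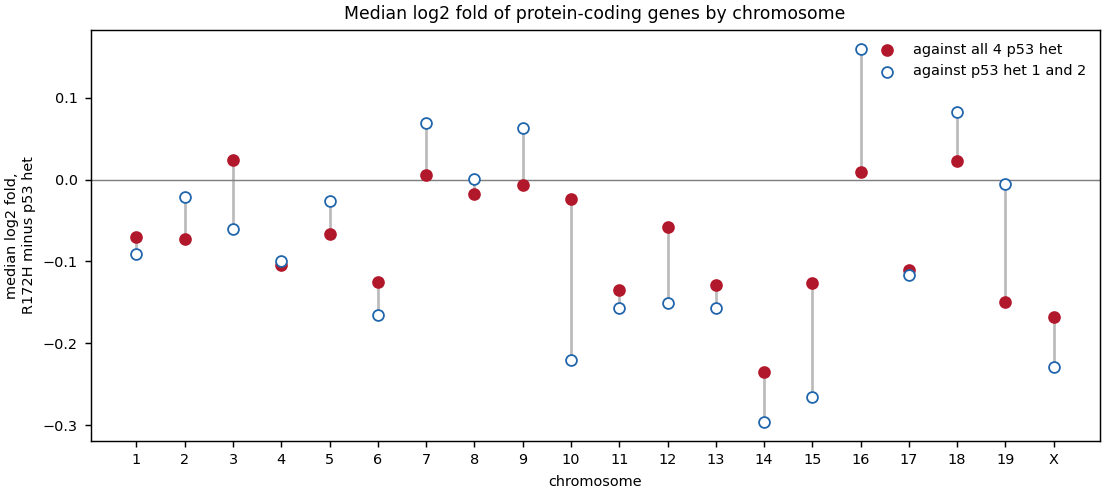
Median log2 fold (R172H minus p53 het) of protein-coding genes of at least 5 CPM on each chromosome, against all 4 p53 het tumours (filled) and against p53 het 1 and 2 (open). Chromosome 14 is lowest in both, at -0.24 and -0.30.

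Groups that do not overlap were found at 444 genes (2.15%), 370 higher in R172H (1.79%) and 74 lower (0.359%). With TMM-scaled CPM there were 418, of which 186 were lower and the rest higher, so the balance of directions depends on the scaling. There were 2152 (10.4%) against p53 het 1 and 2, a count that can only stay or rise when controls are left out. By the naming rule, which uses the lack of overlap, a level of at least 5 CPM, an unadjusted p under 0.01 and the same direction against p53 het 1 and 2, 46 genes were higher and 24 lower. The lack of overlap in the named genes is thus how they were chosen, and it refers to CPM scaled to the library total. With TMM scaling the groups overlap for Runx1, Igfbp7, Rbpms and Cry1. Of the 20 named genes only Gtf2f2 passed, and DESeq2 called 15 of them.

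Besides Trp53, 9 named genes were higher in R172H. Foxc2, a forkhead factor of mesenchyme and vessels, lay at 1.30, 2.17, 0.965 and 1.40 CPM in p53 het 1 to 4 and ran from 3.53 through 6.75 to 27.7 CPM in R172H (log2 fold 2.55 ± 0.65, adjusted p = 0.144). Enpp1, an enzyme that makes pyrophosphate and so restrains mineralisation, was at 20.5 to 28.6 CPM in p53 het and 35.6 to 101 CPM in R172H, lowest in R172H 6 (1.41 ± 0.40, adjusted p = 0.179). Runx1, a relative of Runx2 best known in blood formation, was at 38.2, 94.0, 82.2 and 43.9 CPM in p53 het and 102 to 231 CPM in R172H (1.21 ± 0.35, adjusted p = 0.181). The others were Egr1 (2.42 ± 0.80), an immediate early transcription factor, Spsb1 (1.25 ± 0.32), a ubiquitin ligase adaptor, Anpep (1.11 ± 0.28), a surface peptidase, Igfbp7 (1.05 ± 0.28), a secreted binding protein, Rbpms (1.02 ± 0.30), an RNA-binding protein, and Pcdhga6 (1.02 ± 0.34), a clustered protocadherin.

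Lower in R172H were Panx3, a channel protein of osteoblasts and chondrocytes, and Il18, an inflammatory cytokine. Panx3 had 295, 387, 303 and 393 CPM in p53 het 1 to 4 and ran from 19.1 through 126 to 231 CPM in R172H (-1.57 ± 0.45, adjusted p = 0.184). Il18 had 12.5, 15.3, 16.3 and 19 CPM in p53 het 1 to 4 and 2.11 to 9.57 CPM in R172H (-1.57 ± 0.41, adjusted p = 0.161). These controls lay close together, while the R172H tumours spread widely. Cry1, a repressor of the circadian clock, had -1.03 ± 0.26 and -1.44 ± 0.27 against p53 het 1 and 2 (adjusted p = 0.142 and 0.138), and Mthfd2, a mitochondrial folate enzyme, -1.10 ± 0.33 and -0.90 ± 0.40. Art3 stood at -1.37 ± 0.46. Ngdn (-1.31 ± 0.29) and Smim4 (-1.08 ± 0.26) lie on chromosome 14 too, outside the block.

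The gene lists are described by their counts and medians, beside 51.7% of all tested genes below 0 and a median of -0.02 (0.00 against p53 het 1 and 2). No list other than those of Gtf2f2, of Tacr1 and of the 7SL and Y RNAs had a member that passed. The lists were drawn up with earlier results of these data known, so a passing member is no result about these lists. Of 19 osteoblast and osteocyte genes, 9 were above 0 and 10 below. The collagen genes Col1a1 and Col1a2 stood at -0.83 ± 0.55 and -0.94 ± 0.44, Ifitm5, a bone-restricted membrane protein, at -1.15 ± 0.40, and Runx2 at 0.50 ± 0.24. The factor Sp7 (-0.29 ± 0.38), the phosphatase Alpl (0.22 ± 0.25) and Bglap (-0.87 ± 0.95) differed by less than their standard errors. Of 15 osteoclast genes 10 were above 0, and the list was lower in p53 het 4 than in the 9 other tumours, at -3.60 on the centred log2 scale against -0.94 to 1.75 in the other controls and 0.59 to 1.42 in R172H. Nfatc1, the master factor of osteoclasts, had 1.07 ± 0.48. In the cartilage list Col9a2 had 2.91 ± 1.44, from 82.6 CPM in R172H 2 alone; without that tumour the log2 fold was -0.97.

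Vessel and stroma genes mostly had log2 folds above 0. All 15 endothelial genes were above 0, with a median of 0.45, and 11 of 15 with a median of 0.18 against p53 het 1 and 2. The list's mean level was -0.21, 0.31, 0.02 and -1.04 in p53 het 1 to 4. In R172H it ran from 0.01 to 0.64, so p53 het 2 and 3 lay inside the R172H range. Cdh5, the cadherin of vessel walls, lay at 108, 191, 90.7 and 45.5 CPM in p53 het 1 to 4 and 162 to 302 CPM in R172H (0.82 ± 0.34). Its level was thus lowest in p53 het 4, the tumour with most muscle RNA. All 15 Notch pathway genes were above 0 (median 0.42, and 0.30 with 12 above 0 against p53 het 1 and 2). Of these, Hes1, a target of the pathway, had 1.13 ± 0.34 and Notch4, a receptor of endothelium, 0.59 ± 0.22. Notch4 did not overlap between groups in CPM, as held for 2.15% of all genes. With TMM scaling its groups overlap, since p53 het 2 then lies above R172H 1. The mean level of the Notch list was -0.81, 0.32, -0.25 and -0.73 in p53 het 1 to 4. In R172H it ran from -0.01 to 0.56, so p53 het 2 lay inside the R172H range. Of 15 pericyte and smooth muscle genes 12 were above 0 (median 0.37). Pdgfrb, the PDGF receptor of pericytes and a reported target of mutant p53, lay at 192, 192, 317 and 154 CPM in p53 het 1 to 4 and 366 to 625 CPM in R172H (0.89 ± 0.24, adjusted p = 0.161). Among 20 genes reported elsewhere as targets of mutant p53, 13 were above 0, with a median of 0.11, and 14 against p53 het 1 and 2, with a median of 0.23.

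In the list of TGF-beta response genes, 13 of 19 were above 0 (median 0.31). Smad7, the feedback inhibitor of the pathway, lay at 17.6, 15.2, 16.8 and 21.4 CPM in p53 het 1 to 4 and from 31.7 through 37.3 to 48.8 CPM in R172H. Its groups do not overlap, and its log2 fold was 0.98 ± 0.20 (adjusted p = 0.0667), with an adjusted p of 0.408 against p53 het 1 and 2. Pmepa1, another feedback inhibitor, had 1.23 ± 0.39, whereas Bambi, a decoy receptor, had -0.99 ± 0.38. Of 18 immediate early genes 15 were above 0, with medians of 0.63 and 0.74, and the nuclear receptor Nr4a1 had 2.16 ± 0.75. Both Egr1 and Nr4a1 varied among R172H tumours, with 26.5 to 224 and 12.4 to 139 CPM, and R172H 6 was the highest in each. In the Wnt list Lgr5, a stem cell receptor, had 3.30 ± 0.96, with 0.0394 to 0.395 CPM in p53 het and 0.348 to 10.3 CPM in R172H, and Ccnd1, cyclin D1, had -0.90 ± 0.39.

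Most immune cell lists had medians below 0. All 14 tested neutrophil and granulocyte genes were below 0, with medians of -1.29 and, against p53 het 1 and 2, -2.03. None passed, and none had an unadjusted p under 0.05. The list's mean level was 1.30 in p53 het 1, -0.12 in p53 het 2, -1.13 and -1.32 in p53 het 3 and 4, and ran from -2.80 to 0.36 in R172H, so the groups overlap. Ly6g, a defining marker of mouse neutrophils, lay at 0 to 0.118 CPM in all 10 tumours. Of 12 B and plasma cell genes 10 were below 0 (median -0.80), and all 12 against p53 het 1 and 2 (median -1.43). Jchain, the antibody joining chain, lay at 23.3, 14.1, 15.3 and 4.04 CPM in p53 het 1 to 4 and 0.548 to 8.03 CPM in R172H (-2.44 ± 0.94). Of 17 T and NK cell genes 15 were below 0, but the killer protease Gzmb had 3.02 ± 1.24, with 77.2 CPM in R172H 4 and at most 6.36 CPM in the 9 other tumours. Interferon genes were below 0 in 16 of 21 cases, and in 20 of 21 against p53 het 1 and 2 (medians -0.13 and -0.44).

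Genes of protein synthesis and breakdown mostly had log2 folds below 0. Of 75 cytosolic ribosomal protein genes 69 were below 0, with a median of -0.64, and 67 against p53 het 1 and 2, with a median of -0.30. An unadjusted p under 0.05 was found for 41 of them (54.7%, against 12.3% of all genes), and none passed. The list's mean level was -0.49, 0.14, 0.60 and 0.34 in p53 het 1 to 4. In R172H it ran from -0.60 to -0.06, so p53 het 1 lay inside the R172H range. Some of these genes followed the split of the controls. Rpl39 lay at 38.4 and 52.0 CPM in p53 het 1 and 2, 321 and 178 CPM in p53 het 3 and 4 and 34.0 to 45.2 CPM in R172H (-1.97 ± 0.45, adjusted p = 0.110, and -0.39 ± 0.37 against p53 het 1 and 2). Rps4x instead lay at 739, 427, 663 and 602 CPM in p53 het 1 to 4 and 316 to 452 CPM in R172H, with log2 folds of -0.89 ± 0.22 and -0.90 ± 0.28. Ribosomal protein genes have many processed pseudogenes, which can take some of their reads.

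The proteasome list had 31 of 33 genes below 0 (medians -0.39 and -0.17). Its mean level was -0.31, 0.18, 0.26 and 0.42 in p53 het 1 to 4. In R172H it ran from -0.44 to -0.03, so p53 het 1 again lay inside the R172H range. Psmb5, a catalytic subunit of the proteasome, lay at 20.9, 26.5, 46.3 and 39.2 CPM in p53 het 1 to 4 and 7.95 to 22.7 CPM in R172H (-1.20 ± 0.35, adjusted p = 0.198). Ribosome biogenesis genes were below 0 in 21 of 23 cases (medians -0.36 and -0.17), and Gnl3, a nucleolar protein whose gene lies on chromosome 14, had -0.93 ± 0.22 (adjusted p = 0.124). Of 28 respiratory chain genes 22 were below 0 with a median of -0.32, but the median was 0.02 against p53 het 1 and 2. Ndufa2, a subunit of complex I, lay at 16.8, 14.1, 122 and 91.8 CPM in p53 het 1 to 4 and 18.9 to 23.7 CPM in R172H, with log2 folds of -1.64 ± 0.42 and 0.22 ± 0.24. Of 20 genes of the unfolded protein response 15 were below 0 in both comparisons, with a median of -0.34 in each. Chac1, a glutathione-degrading enzyme of that response, lay at 26.3, 35.3, 7.59 and 18.6 CPM in p53 het 1 to 4 and 1.63 to 11.7 CPM in R172H. Its log2 folds were -1.87 ± 0.60, and -2.42 ± 0.67 against p53 het 1 and 2. Against these 2 controls its groups do not overlap, as held for 10.4% of all genes.

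The counts for mitosis genes depended on which controls were used. Of 25 mitosis genes 13 were above 0 against all 4 controls (median 0.02) and all 25 against p53 het 1 and 2 (median 0.52). The list's mean level was -0.68, -0.30 and -0.28 in p53 het 1, 2 and 3 and 0.84 in p53 het 4. Ccna2, cyclin A2, lay at 51.8, 57.5, 47.4 and 121 CPM in p53 het 1 to 4 and 59.3 to 212 CPM in R172H (0.60 ± 0.37, and 0.82 ± 0.47). Skeletal muscle genes turned in the same way, with 12 of 17 below 0 against all 4 controls (median -0.74) and all 17 above 0 against p53 het 1 and 2 (median 2.20). Their mean level was 3.37 in p53 het 4, -2.70 to -0.84 in the other controls and -3.18 to 2.69 in R172H. None of the mitosis or muscle genes passed.

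Of the other lists, 20 of 26 DNA replication genes were below 0 against all 4 controls, and 7 against p53 het 1 and 2. The posterior Hox genes, which pattern limbs and the rear of the body, had 10 of 12 above 0 (median 0.43) and 3 of 12 against p53 het 1 and 2 (median -0.50). Their summed level was 0.395 CPM in p53 het 3 and 14.9 CPM in p53 het 4, against 40.3 to 120 CPM in R172H and 91.8 and 74.1 CPM in p53 het 1 and 2. Of 54 clustered histone genes 43 were below 0 (medians -0.29 and -0.04), of 11 adipocyte genes 10 (medians -0.87 and -0.52), and of 20 hypoxia and glycolysis genes 15 (medians -0.35 and -0.01). Fibroblast genes were above 0 in 11 of 16 cases and receptor tyrosine kinases in 11 of 20. Macrophage genes were below 0 in 11 of 15 cases.

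**Figure D5:**
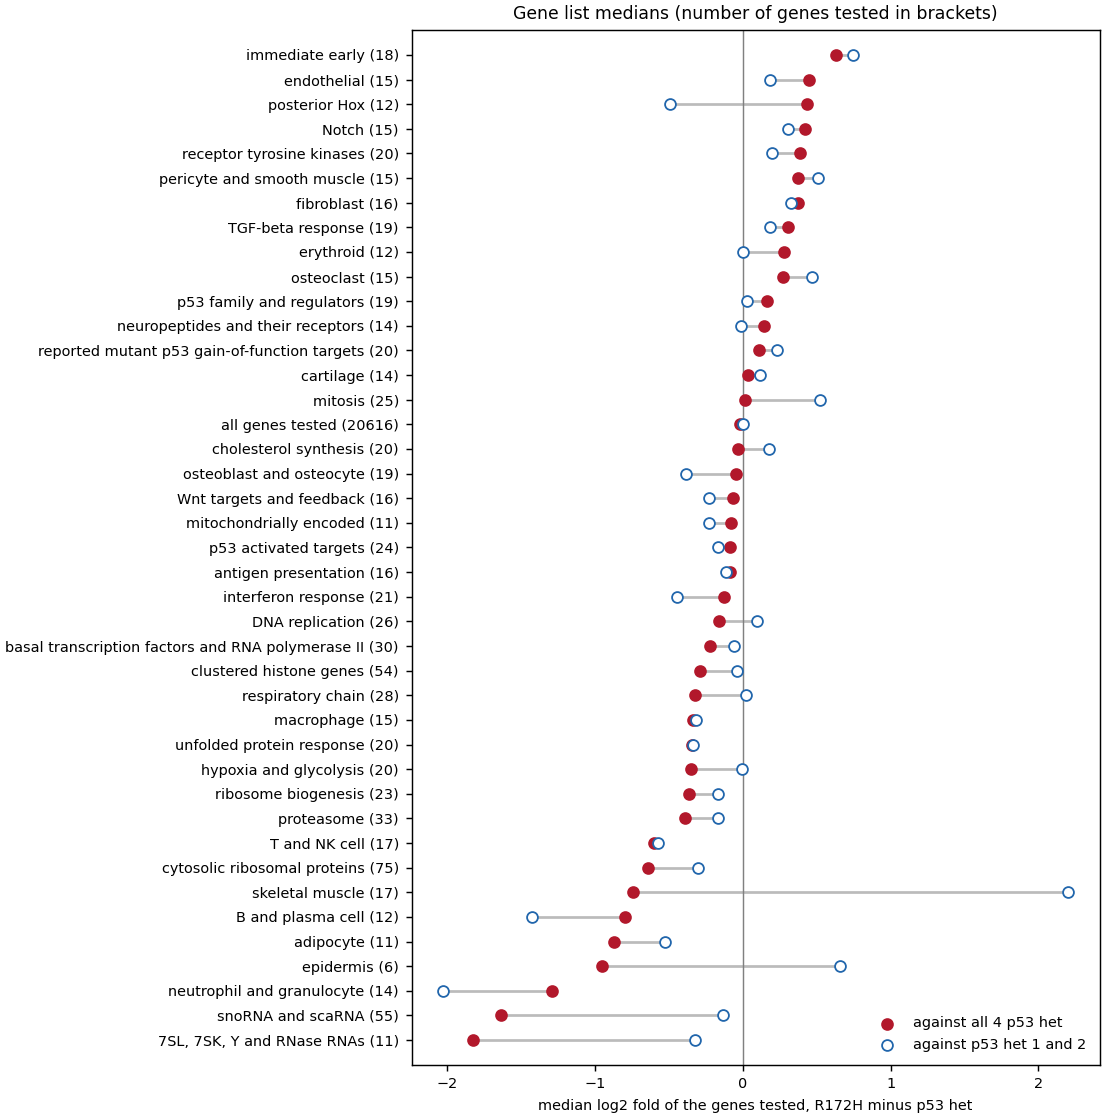
Median log2 fold (R172H minus p53 het) of the tested genes of each list, against all 4 p53 het tumours (filled) and against p53 het 1 and 2 (open), with the number of genes in brackets. The small RNA lists move from -1.83 and -1.64 to -0.33 and -0.14, and skeletal muscle from -0.74 to 2.20.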

How the data were processed

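The authors aligned reads to GRCm38 with STAR 2.6.0b and used DESeq2, per the submitters' processing notes. The deposited table holds raw counts per gene, and the counting tool and its strand setting are not given in the sources used here. Of 49585 gene IDs, 49326 matched GENCODE M21. Counts of the 18 tumours were fitted with edgeR 4.0.16 in R 4.3.3 (TMM, filterByExpr with a minimum count of 10 and minimum total of 15, 1 mean per genotype, 14 residual degrees of freedom), and p-values measure the spread between tumours. DESeq2 1.42.0 and limma 3.58.1 were alternatives. The fit was checked on simulated counts with planted folds. These held no split among the controls, so the check cannot show whether the fit suits these tumours. Log2 CPM used a prior count of 2. Members, gene lists and rules were chosen with earlier results of these data known. The text names all genes that passed (unnamed models mostly as counts), the 10 highest and 10 lowest folds of the rule given, up to 3 members of lowest p per list with at least 1 CPM, and fixed p53, bone and receptor genes; genes of the chromosome 14 block were picked after their values were seen. The floor of 3 counts covers counting error only.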

Additional observations from a re-analysis of the deposited data

Results flagged for a closer look

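In 12 of 286 pairs of a named gene and a group, 1 tumour stood apart from the rest of its group on the log2 CPM scale by Dixon's 95% criterion, and chance flags about 1 in 20. In p53 het, Runx2 was highest in tumour 1 (295 CPM) and Isg15 lowest there (3.75 CPM). Mthfd2 (133 CPM) and Rfc3 (43.0 CPM), a subunit of the replication clamp loader, were highest in tumour 4, and Xbp1, a factor of the unfolded protein response, was lowest in tumour 3 (181 CPM). Gm13443 was lowest in tumour 3 (0.219 CPM) and Rps26-ps1 highest in tumour 2 (37.0 CPM). In R172H, Egr1 was highest in tumour 6 (224 CPM), Col9a2 in tumour 2 (82.6 CPM), Rb1 in tumour 5 (71.1 CPM) and Rps4x in tumour 4 (452 CPM). Panx3 was lowest in R172H tumour 4 (19.1 CPM).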

How the results depend on the processing

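The number of genes that passed (16) was 295 with DESeq2, 33 with no low-count filter, 488 with p53 het 3 and 4 as the controls and 4 with p53 het 1 and 2. It was 0 with only the 2 groups in the fit, with limma voom and with a muscle score as covariate (2097, 2079 and 2417 genes at an unadjusted p under 0.05), and 0 to 166 with 1 of the 18 tumours left out. Against p53 het 1 and 2 the count of 4 became 53 with DESeq2, 8 with no filter, 2 with only the 2 groups, 2 with limma voom and 1 to 30 with 1 tumour left out, where a lone control is assumed to vary like the other groups. The log2 fold of Trp53 in the model passed with DESeq2 (1.17) and without p53 het 2 (1.41), and ran from 1.02 to 1.41 with 1 tumour left out. The chromosome 14 median was -0.41 with p53 het 3 and 4 as the controls and -0.86 to -0.38 with 1 tumour left out; the low end of its size came without p53 het 1. Genes with no overlap numbered 2152 against p53 het 1 and 2, and 504 to 1319 with 1 of the 10 tumours left out, the latter chosen after seeing the data. With fewer tumours this count can only stay or rise, so these numbers do not measure how stable it is. The cause of the other shifts was not tested.

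Against p53 het 1 and 2, the log2 fold turned sign for Gm26493 (0.54), Gtf2h5 (0.0011), Snora62 (0.026), Lcp1 (-0.018), Hr (-0.26), Alpl (-0.11), Ndufa2 (0.22), Cdc20 (0.28), Rfc4 (0.45), Myh4 (0.21), Actn3 (0.83), Hist1h4b (0.98). Against p53 het 3 and 4, the log2 fold turned sign for Cdkn1a (0.22), Mdm2 (0.13), Gtf2f1 (0.19), Rn7sk (0.37), Sp7 (0.19), Ighm (0.22), Chil3 (0.33), Hoxb9 (0.89). With the muscle covariate, the log2 fold turned sign for Mdm2 (0.035), Rn7sk (0.057), Hr (-0.0091). With limma voom, the log2 fold turned sign for Hr (-0.021), Myh7 (-0.081), Hoxb9 (0.22). With 1 tumour left out in turn, the range of the log2 fold crossed 0 for Cdkn1a (-0.24 to 0.41), Mdm2 (-0.17 to 0.10), Gtf2f1 (-0.32 to 0.046), Rn7sk (-0.19 to 0.13), Lcp1 (-0.081 to 0.39), Hr (-0.54 to 0.30), Col9a2 (-0.97 to 4.45), Bnip3 (-1.34 to 0.063), Cdc20 (-0.93 to 0.091), Myh4 (-3.82 to 0.71), Actn3 (-1.96 to 1.06), Hoxb9 (-2.86 to 0.98).
Of the median log2 folds of 40 lists, 19 changed sign under at least 1 alternative, and 7 did against p53 het 1 and 2 over the genes tested in both fits. Depth limits Tacr1, since p53 het 2 was at the floor of 3 counts. The labels give no pairing of tumours between the groups, so no paired analysis was made, and the numbers used here only name tumours.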
